A study of Mus musculus with 2 samples.

Results

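The genes of Wnt signalling at the cell surface were followed in mouse hearts under pressure overload, as 55 protein-coding genes chosen by name from 55401 gene identifiers. They were the genes whose GENCODE M21 symbol names a Wnt, a Frizzled, an Sfrp, a Dickkopf or an R-spondin, with Dkkl1, Frzb, Wif1, Lrp5, Lrp6, Kremen1, Ror1, Ror2, Axin1, Axin2, Lgr4, Znrf3, Rnf43 and Ctnnb1 added. By role they comprised 19 Wnt ligands, 10 Frizzled receptors, 4 co-receptors, 7 genes of the R-spondin arm, 12 genes of an antagonist group and 3 intracellular genes. The antagonist group holds the Sfrp genes, Frzb, Wif1, the Dickkopf genes and Dkkl1, with the Dickkopf receptor Kremen1, which is not secreted. The rule goes by gene names and holds no measured value, but it was set with earlier results of these data known. The dioscin library came from C57BL/6 mouse hearts after transverse aortic constriction and 4 weeks of dioscin, a steroidal saponin made by plants. The constriction (TAC) narrows the aorta by surgery, so that the left ventricle pumps against raised pressure. The TAC library came from C57BL/6 hearts after TAC and is taken as untreated on its treatment label, since the protocol text of both samples names dioscin. Each group had 1 library, hearts without surgery were not analysed here, and the labels give neither the animals' age nor the number of hearts in a library.

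Wnts are secreted lipid-modified glycoproteins that bind Frizzled receptors together with Lrp5 or Lrp6, which stabilises beta-catenin and switches on TCF/LEF target genes, or act through Ror receptors and planar polarity proteins. R-spondins bind Lgr receptors and keep the ligases Znrf3 and Rnf43 from removing Frizzled from the membrane. Secreted Sfrp proteins, Frzb and Wif1 bind Wnts, and Dickkopf proteins block the Lrp co-receptors with the help of Kremen receptors. In the adult heart the pathway is largely quiet and is known for its part in fibrosis, hypertrophy and the epicardium.

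The dioscin library held 17612259 counts in genes and the TAC library 16782741, and heart muscle markers were abundant in both (Myh6 at 22659.5 CPM in the dioscin library and 20675 CPM in the TAC library). Levels are given as CPM, counts per 1000000 counts of the library after TMM, a scaling that evens out composition. The size rule calls a gene higher or lower in the dioscin library where the larger of its CPM values was at least 1, the ratio was at least 2-fold and the 95% counting interval of the ratio excluded 1. The interval, given in brackets after each ratio, covers counting error only, so the rule describes 2 libraries and tests no treatment effect. In bulk libraries fewer cells of a type and less RNA per cell cannot be told apart. Of the 55 genes, 33 reached 1 CPM. Of those 33, 13 were higher in the dioscin library and none was lower, while the same rule called 10.5% of all 15697 genes at or above 1 CPM higher and 8.77% lower, and 9.8% and 7.27% of the 13219 protein-coding ones. The interval alone excluded 1 upward for 19 members and downward for 4, beside 35.1% and 32.1% of all genes. The median log2 ratio of dioscin over TAC was 0.85 over the 33 genes and 0.01 over all genes. A filter on the higher library favours genes that differ, and Ror2, Rspo1, Sfrp5, Wnt2 and Wnt4 reached 1 CPM in the dioscin library alone, while no member did so in the TAC library alone. Among the 28 at or above 1 CPM in both libraries, 9 were higher and none lower, beside 7.92% and 5.92% of 14147 genes, and the median log2 ratio was 0.60. Among the 22 with a larger value between 1 and 10 CPM, 10 were higher and none lower, beside 14.5% and 15.2% of 5824 genes in that range. With mitochondrial genes left out of the library totals, 1275 genes of all were higher and 2286 lower, against 1655 and 1377 with TMM. That scaling moved the median log2 ratio of all genes to -0.21 and that of the members to 0.60, with 12 members higher and 1, Sfrp4, lower.

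**Figure D1:**
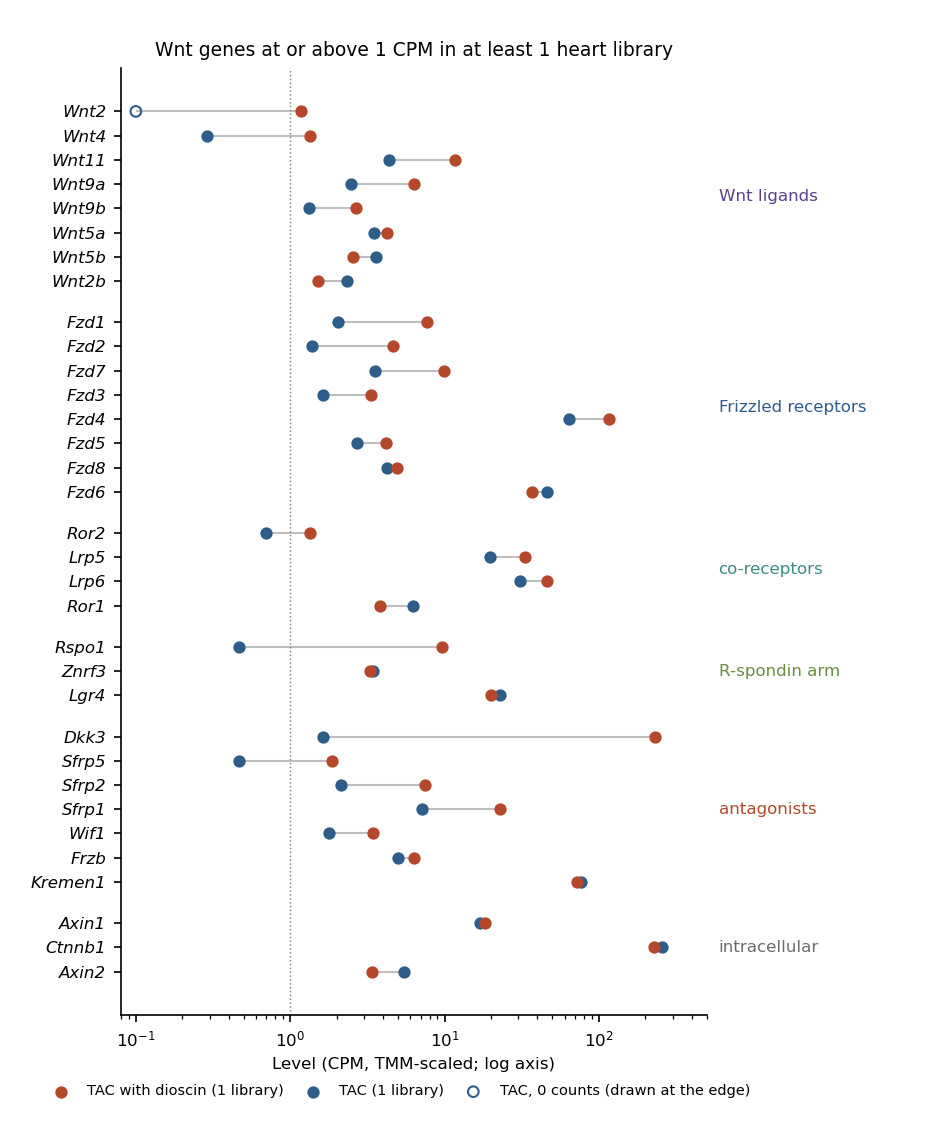
Level of each of the 33 Wnt genes at or above 1 CPM, in CPM on a log axis, by role, with 1 point per library and the dotted line at 1 CPM (open point, Wnt2 at 0 counts in the TAC library, drawn at the edge). Dkk3 shows the widest gap, at 230.1 CPM in the dioscin library and 1.62 CPM in the TAC library, whereas the points for Ctnnb1, Kremen1 and Axin1 nearly coincide.

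Markers of several cell types differed between the libraries as well. Of 5 atrial muscle markers at or above 1 CPM, all 5 were higher in the dioscin library. Their sum was 17319 CPM in the dioscin library and 592 CPM in the TAC library, most of it Nppa, a gene that overloaded ventricles also express. Sln had 12433 counts in the dioscin library and 1 in the TAC library, Myl7 30109 counts in the dioscin library and 13 in the TAC library, and Mybphl 3427 counts in the dioscin library and 0 in the TAC library. The sixth marker, Bmp10, had 3 counts in the dioscin library and 0 in the TAC library. Of 8 mesothelial and epicardial markers 7 were higher, with a sum of 153 CPM in the dioscin library and 18.5 CPM in the TAC library. Krt8 had 159 counts in the dioscin library and 0 in the TAC library, Krt18 235 counts in the dioscin library and 0 in the TAC library, and Msln 820 counts in the dioscin library and 4 in the TAC library. Of these markers, Wt1 did not pass, with a ratio of 0.965 (0.812 to 1.15). Of 5 adipocyte markers 4 were higher. Their sum of 2598 CPM in the dioscin library and 1344 CPM in the TAC library was nearly all Fabp4. Fabp4 was the 1 that did not pass, with a ratio of 1.92 (1.89 to 1.95). Of the other 4, Cfd was the most abundant, with 16.1 CPM in the dioscin library and 0.116 CPM in the TAC library. Plin1 and Cidec had no counts in the TAC library, while Lep had none in either. The 3 endocardial markers were all higher, with a sum of 308 CPM in the dioscin library and 24.3 CPM in the TAC library.

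Of 9 fibroblast markers 4 were higher, with a median ratio of 1.61 and a sum of 1755 CPM in the dioscin library and 623 CPM in the TAC library. Dcn was the most abundant, with 1062 CPM in the dioscin library and 259 CPM in the TAC library. Dcn was 4.09-fold higher (3.96 to 4.23) and Lum 3.13-fold higher (2.79 to 3.54), whereas Pdgfra, the defining receptor, had a ratio of 1.4 (1.26 to 1.56), Tcf21 1.17 (0.823 to 1.66) and Col1a1 1.05 (0.966 to 1.14). Of 5 activated fibroblast markers 2 were higher, with a sum of 334 CPM in the dioscin library and 247 CPM in the TAC library, and Postn had a ratio of 0.927 (0.857 to 1.00). Of 6 ventricular muscle markers 1 was higher and 1 lower, with a sum of 40871 CPM in the dioscin library and 37118 CPM in the TAC library, though Myh6, Tnni3 and Actn2 are also made by atrial muscle. Irx4, a ventricular transcription factor, was 4.2-fold lower (3.62 to 4.91), and Actn2 2.02-fold higher (1.98 to 2.06). The ratio was 1.58 (1.56 to 1.61) for Myl3, 1.36 (1.35 to 1.37) for Tnni3, 1.10 (1.09 to 1.10) for Myh6 and 0.785 (0.779 to 0.791) for Myl2. Of 6 endothelial markers 2 were higher and 1 lower, with a sum of 1463 CPM in the dioscin library and 1492 CPM in the TAC library. Of 5 mural markers 1 was lower, with a sum of 1069 CPM in the dioscin library and 1110.0 CPM in the TAC library. Of 6 macrophage markers 1 was higher and 1 lower, with a sum of 226 CPM in the dioscin library and 136 CPM in the TAC library. All 5 B cell markers at or above 1 CPM were lower, with a sum of 3.86 CPM in the dioscin library and 17.1 CPM in the TAC library. Of 3 T cell markers 2 were lower, with a sum of 4.85 CPM in the dioscin library and 11 CPM in the TAC library. Of 3 Schwann and nerve markers none passed, with a sum of 13.7 CPM in the dioscin library and 24.2 CPM in the TAC library. The part of any of these markers in the differences of Dkk3, Rspo1, Wnt2 or the other members was not tested.

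**Figure D2:**
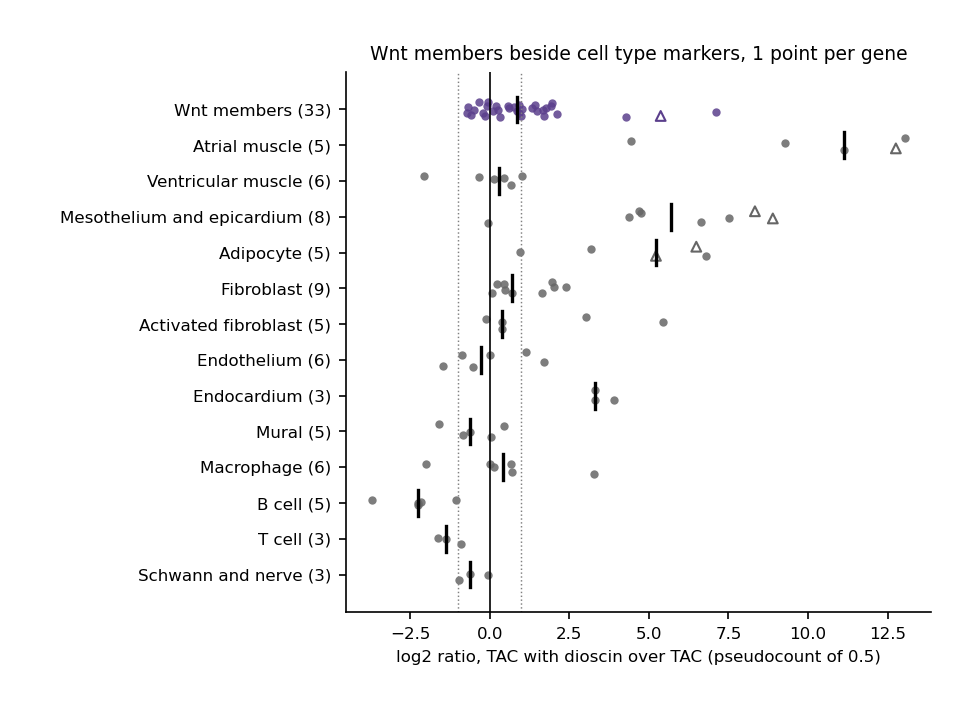
Log2 ratio, dioscin over TAC, for the 33 Wnt members and for cell type markers at or above 1 CPM, with 1 point per gene, the median as a black line and dotted lines at a 2-fold difference. Open triangles are genes with no counts in the TAC library, whose place depends on the pseudocount. Dkk3, the member farthest right, lies within the range of the atrial and mesothelial markers.

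Among the ligands, 4 of the 8 that reached 1 CPM were higher in the dioscin library, beside 10.5% of all genes. The median log2 ratio of the 8 was 1.16. Of the 4, Wnt2 and Wnt4 reached 1 CPM in the dioscin library alone, and a filter on the higher library favours such genes. Wnt11, which in vertebrates mostly signals without beta-catenin and takes part in heart development (ENSMUSG00000015957.12; chromosome 7, 98835112 to 98855195 on GRCm38), had 201 counts or 11.7 CPM in the dioscin library, against 75 counts or 4.34 CPM in the TAC library, 2.69-fold higher (2.06 to 3.57). It was the most abundant ligand per exonic length in the dioscin library, at 2.84 CPM per kb, and a predicted gene on the opposite strand covers 8.80% of that length. Wnt9a, a ligand of joint development (chromosome 11, 59306928 to 59333552), had 108 counts or 6.31 CPM in the dioscin library, against 43 counts or 2.49 CPM in the TAC library, 2.52-fold higher (1.76 to 3.70). Both libraries thus held these genes above the filter, with the dioscin library the higher.

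The other pair of higher ligands rested on few reads. Wnt2, a beta-catenin-dependent ligand of early heart and lung development (chromosome 6, 17988940 to 18030585), had 20 counts or 1.17 CPM in the dioscin library and none in the TAC library. With those 20 counts taken as exact, it was at least 6.73-fold higher against a floor of 3 counts in the TAC library, and its counting interval, which allows for error in both libraries, began at 4.98. Wnt4, a ligand of kidney and gonad development, had 23 counts in the dioscin library and 5 in the TAC library, 4.31-fold higher (1.73 to 15.6). The width of its interval shows how little the 5 counts fix.

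Wnt9b, a ligand of kidney development with 46 counts in the dioscin library and 23 in the TAC library, did not quite reach the 2-fold line, with a ratio of 2.0 (1.20 to 3.49). At the other side of the threshold stood Fzd3, with 2.04. The noncanonical ligands Wnt5a and Wnt5b, which act mainly through Ror receptors, did not pass. Wnt5a had 4.21 CPM in the dioscin library and 3.47 CPM in the TAC library, with a ratio of 1.21 (0.847 to 1.73). Wnt5b had 2.57 CPM in the dioscin library and 3.59 CPM in the TAC library, with a ratio of 0.718 (0.475 to 1.07), and it was the most abundant ligand per length in the TAC library. Wnt2b, the relative of Wnt2, had 26 counts in the dioscin library and 40 in the TAC library, a ratio of 0.660 (0.384 to 1.10) that runs opposite to Wnt2 without its interval excluding 1. Of the summed ligand level per length, Wnt11 made up 33.9% in the dioscin library and 22.8% in the TAC library, and Wnt5b 11.6% in the dioscin library and 29.3% in the TAC library. All 19 ligands together had 557 counts in the dioscin library and 314 in the TAC library, a ratio of 1.79 (1.56 to 2.06).

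Beyond these 8, 11 ligands stayed under 1 CPM in both libraries. Wnt1, Wnt3, Wnt3a, Wnt8a, Wnt10a and Wnt16 had no counts in either, which allows up to 0.175 CPM in the dioscin library and 0.174 CPM in the TAC library. Wnt6 had 5 counts in the dioscin library and none in the TAC library, and Wnt10b had 9 in the dioscin library and 5 in the TAC library. Wnt7a, Wnt7b and Wnt8b had at most 2 counts in a library. Several ligands without counts lie beside detected ones. Wnt3a, with no counts, lies 16.2 kb from Wnt9a on chromosome 11, and Wnt3, also with none, lies 24.3 kb from Wnt9b on the same chromosome. Wnt10a, with no counts, lies 6.19 kb from Wnt6 on chromosome 1, and Wnt1 lies 11.7 kb from Wnt10b on chromosome 15.

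The bases before the start site were searched in the RefSeq promoter table of GRCm38.p6, which matched 36 of the 55 members, for short words on both strands. The words were CTTTGAA and CTTTGAT for TCF/LEF, AGATAA for GATA factors, GGAATG for TEAD and AGAACA for the glucocorticoid receptor. Within 250 bases before a start, 8.63% of the 27025 genes in the table held a TCF/LEF word, 11.4% a GATA word, 14.4% a TEAD word and 18.2% the glucocorticoid receptor word. Of the 9 higher members with a window, 1 held a TCF/LEF word, 2 a GATA word and none the others, and of 12 members at or above 1 CPM that were not higher the numbers were 1 and 0, with a TEAD word in 1 and the glucocorticoid receptor word in 2. Wnt11 held the TCF/LEF word, in reverse orientation, from 51 to 45 bases before 1 of its RefSeq starts. The window of its other start in the table (chr7:98838595-98838844) held none of the words. The window with the word, 5′ to 3′ with the word in capitals, is printed because Wnt11 is the only higher member with that word (chr7:98834862-98835111, plus strand).
Wnt11: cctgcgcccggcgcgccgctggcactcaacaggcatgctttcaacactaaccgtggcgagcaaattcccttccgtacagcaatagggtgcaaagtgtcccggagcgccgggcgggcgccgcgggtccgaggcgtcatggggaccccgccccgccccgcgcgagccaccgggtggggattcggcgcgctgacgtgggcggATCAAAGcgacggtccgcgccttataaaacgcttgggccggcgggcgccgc

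Of the 8 Frizzled receptors at or above 1 CPM, 4 were higher in the dioscin library, beside 10.5% of all genes. The ratio was above 1 for 7 of the 8 (median log2 ratio 0.94). Fzd1 (ENSMUSG00000044674.6; chromosome 5, 4753839 to 4758035) had 132 counts or 7.71 CPM in the dioscin library, against 35 counts or 2.03 CPM in the TAC library, 3.77-fold higher (2.60 to 5.69). Fzd2 (chromosome 11, 102604396 to 102608058) had 79 counts or 4.62 CPM in the dioscin library, against 24 counts or 1.39 CPM in the TAC library, 3.27-fold higher (2.08 to 5.49). Fzd7 (chromosome 1, 59482424 to 59486955) had 171 counts or 9.99 CPM in the dioscin library, against 61 counts or 3.53 CPM in the TAC library, 2.81-fold higher (2.1 to 3.85). These 3 genes form the closest related group of Frizzleds by sequence and signal to beta-catenin as well as to planar polarity. All 3 were thus higher, with overlapping intervals. Their sum was 382 counts in the dioscin library and 120 in the TAC library, a ratio of 3.20 (2.61 to 3.98).

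The remaining subfamilies differed less, a grouping made with the values already known. Fzd4, the receptor of Norrin in retinal vessels as well as of Wnts, was the most abundant Frizzled by CPM in both libraries. It had 1984 counts or 116 CPM in the dioscin library, against 1107 counts or 64.1 CPM in the TAC library, a ratio of 1.81 (1.68 to 1.95) whose interval ends below 2. Fzd6, which acts mostly in planar polarity, had 631 counts or 36.9 CPM in the dioscin library, against 800 counts or 46.3 CPM in the TAC library, a ratio of 0.796 (0.716 to 0.884) and the only Frizzled whose interval lay below 1. Fzd3, its closest relative, had 57 counts in the dioscin library and 28 in the TAC library, 2.04-fold higher (1.28 to 3.35), and left the rule when libraries were scaled by total counts. The sum of Fzd3 and Fzd6 was 688 counts in the dioscin library and 828 in the TAC library, a ratio of 0.838 (0.757 to 0.929). Fzd5 and Fzd8, a pair that binds Wnts together with Lrp6, had ratios of 1.52 (1.04 to 2.25) and 1.16 (0.838 to 1.61). A predicted gene on the opposite strand covers 17.8% of the exonic length of Fzd5, and another 3.15% of that of Fzd6. The libraries are taken as unstranded, and without strand the reads in the stretch that such a pair shares cannot be told apart. Counts marked ambiguous between genes, 1.39% of all counted in the dioscin library and 1.49% in the TAC library, stayed out of gene counts. How many of them fall on these pairs is not known.

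Per exonic length, Fzd4 had 17.2 CPM per kb in the dioscin library and 9.54 in the TAC library, and Fzd6 had 7.65 CPM per kb in the dioscin library and 9.62 in the TAC library. The pair stood level in the TAC library and apart in the dioscin library. Of the summed Frizzled level per length, Fzd4 made up 53.6% in the dioscin library and 42.8% in the TAC library. Fzd6 made up 23.8% in the dioscin library and 43.2% in the TAC library. Fzd9 and Fzd10 stayed under 1 CPM, with 8 and 6 counts in the dioscin library and 10 and 0 in the TAC library. All 10 receptors together had 3223 counts in the dioscin library and 2185 in the TAC library, a ratio of 1.49 (1.41 to 1.57), and without Fzd4 the ratio was 1.16 (1.07 to 1.26). The window before the RefSeq start of Fzd1 held the GATA word 1 time in each orientation (capitals), and it is shown because Fzd1 had the highest ratio among the receptors (chr5:4758217-4758466, minus strand).
Fzd1: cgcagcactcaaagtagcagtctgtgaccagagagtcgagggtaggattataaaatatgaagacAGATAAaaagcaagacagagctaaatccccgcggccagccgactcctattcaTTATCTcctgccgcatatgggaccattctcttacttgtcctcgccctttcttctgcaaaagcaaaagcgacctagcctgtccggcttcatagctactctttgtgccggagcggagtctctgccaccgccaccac

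**Figure D3:**
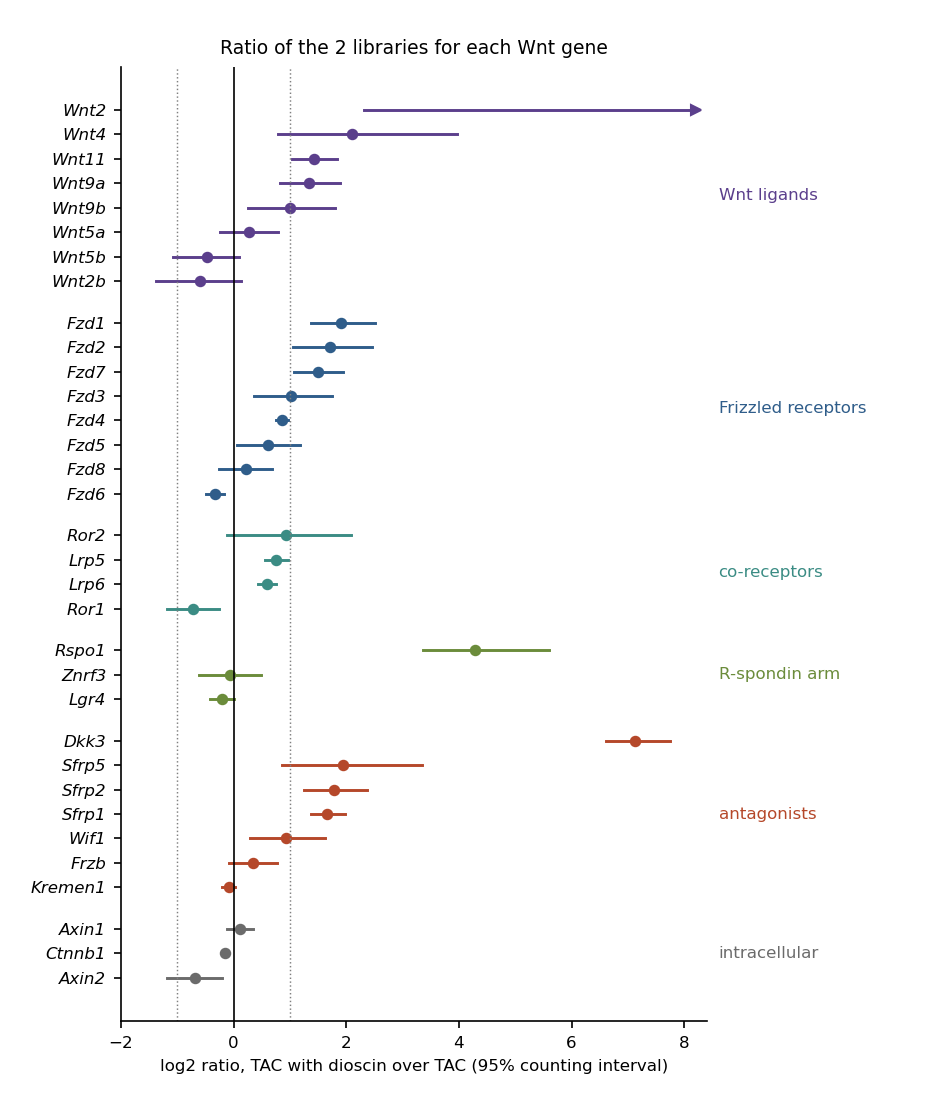
Log2 ratio, dioscin over TAC, for the 33 genes, by role, with the 95% counting interval as a bar and dotted lines at a 2-fold difference. The arrow for Wnt2 starts at the lower end of its interval, since the TAC library had no counts. Rspo1 and Dkk3 stand far right of the other points, and no interval lies wholly left of the lower dotted line.

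No co-receptor passed the size rule, but 3 of 4 had intervals that excluded 1, in both directions. Lrp5 and Lrp6, the single-span receptors that join Frizzled to form the beta-catenin signalling complex, were both moderately higher. Lrp5 had 568 counts or 33.2 CPM in the dioscin library, against 338 counts or 19.6 CPM in the TAC library, a ratio of 1.69 (1.48 to 1.95). Lrp6 had 791 counts or 46.2 CPM in the dioscin library, against 531 counts or 30.7 CPM in the TAC library, a ratio of 1.5 (1.34 to 1.68). Ror1, a tyrosine kinase-like receptor of Wnt5a, stood the other way with 65 counts or 3.80 CPM in the dioscin library, against 108 counts or 6.25 CPM in the TAC library, a ratio of 0.609 (0.439 to 0.834). Ror2, its relative, had 23 counts in the dioscin library and 12 in the TAC library, a ratio of 1.90 (0.923 to 4.26) that its few counts leave undetermined. Per length Lrp5 and Lrp6 were at a similar level, with 3.41 and 3.38 CPM per kb in the dioscin library and 2.01 and 2.25 in the TAC library.

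In the R-spondin arm 1 ligand passed the size rule, and neither the receptor Lgr4 nor the ligase Znrf3 did. Rspo1 (ENSMUSG00000028871.7; chromosome 4, 124986430 to 125009099), a secreted activator known from ovary development, had 164 counts or 9.58 CPM in the dioscin library, against 8 counts or 0.463 CPM in the TAC library, 19.5-fold higher (10.3 to 48.7). Its ratio ranked 104 from the top among the 15697 genes at or above 1 CPM. Lgr4, an R-spondin receptor, had 340 counts or 19.9 CPM in the dioscin library, against 397 counts or 23.0 CPM in the TAC library, a ratio of 0.864 (0.745 to 1.00). Lgr6, another R-spondin receptor, is not among the 55 members. It had 1995 counts or 117 CPM in the dioscin library, against 1106 counts or 64.0 CPM in the TAC library. Its ratio of 1.82 (1.69 to 1.96) did not pass the rule. Per length Lgr6 had 17.0 CPM per kb in the dioscin library and 9.35 in the TAC library, above Lgr4 in both. Znrf3, the ligase that removes Frizzled, had 56 counts in the dioscin library and 59 in the TAC library, a ratio of 0.958 (0.652 to 1.4). Rspo3, the R-spondin of vessels, had 11 counts in the dioscin library and 2 in the TAC library, all under 1 CPM, with a ratio of 4.64 (1.21 to 51.5). Rnf43 had 1 count in the dioscin library and 5 in the TAC library. Rspo2 had 1 count in the dioscin library and none in the TAC library, and Rspo4 had none in either. Of the summed level per length of the 7 members of this arm, which leave out Lgr6, Rspo1 made up 55.2% in the dioscin library and 5.13% in the TAC library. Mesothelial markers, summing to 153 CPM in the dioscin library and 18.5 CPM in the TAC library, stood in the same direction, and their part in the Rspo1 value was not tested. Its promoter window is shown because it is the ligand with the largest difference that is detected in both libraries, and it held none of the words searched (chr4:124986180-124986429, plus strand).
Rspo1: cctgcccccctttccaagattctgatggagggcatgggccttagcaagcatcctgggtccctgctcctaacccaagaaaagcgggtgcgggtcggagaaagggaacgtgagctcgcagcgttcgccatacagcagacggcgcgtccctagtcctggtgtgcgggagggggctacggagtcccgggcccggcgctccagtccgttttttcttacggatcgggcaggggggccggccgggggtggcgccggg

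Of the 7 antagonist genes at or above 1 CPM, 4 were higher in the dioscin library, beside 10.5% of all genes. The median log2 ratio of the 7 was 1.66. Of the 4, Sfrp5 reached 1 CPM in the dioscin library alone. Dkk3 had the highest ratio of the 33 members. Dkk3 (ENSMUSG00000030772.6; chromosome 7, 112116017 to 112159057) is the divergent Dickkopf, which unlike Dkk1 is not an established Lrp5 or Lrp6 blocker. It had 3938 counts or 230.1 CPM in the dioscin library, against 28 counts or 1.62 CPM in the TAC library, 139-fold higher (98.0 to 214). The TAC library thus held Dkk3 barely above the filter, and the dioscin library at about the CPM of Ctnnb1. The ratio of Dkk3 ranked 16 from the top among the 15697 genes. Atrial muscle markers, summing to 17319 CPM in the dioscin library and 592 CPM in the TAC library, stood in the same direction. Mesothelial markers other than Wt1 and the endocardial markers also stood in that direction. The part of these markers in the Dkk3 value was not tested. The other Dickkopf genes were near 0 counts. Dkk1 and Dkk4 had no counts, Dkk2 had 2 in each library, and Dkkl1 had 1 in the dioscin library and 2 in the TAC library.

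Sfrp1, Sfrp2 and Sfrp5, the subfamily of Frizzled-related proteins closest to one another in sequence, were all higher in the dioscin library. Sfrp1 (ENSMUSG00000031548.7; chromosome 8, 23411502 to 23449632) had 390 counts or 22.8 CPM in the dioscin library, against 124 counts or 7.18 CPM in the TAC library, 3.16-fold higher (2.59 to 3.92). Sfrp2, a fibroblast-secreted member (chromosome 3, 83766321 to 83774316), had 127 counts or 7.42 CPM in the dioscin library, against 37 counts or 2.14 CPM in the TAC library, 3.43-fold higher (2.38 to 5.14), and a predicted opposite-strand gene covers 16.1% of its exonic length. Sfrp5, an antagonist also known as a fat-secreted factor, reached 1 CPM in the dioscin library alone. It had 32 counts in the dioscin library and 8 in the TAC library, 3.86-fold higher (1.82 to 10.1). The 3 intervals overlap, and the sum was 549 counts in the dioscin library and 169 in the TAC library, a ratio of 3.27 (2.75 to 3.92). Fibroblast markers summed to 1755 CPM in the dioscin library and 623 CPM in the TAC library, with Dcn the most abundant and a median ratio of 1.61 over the 9, and their part in the Sfrp values was not tested. The second Sfrp subfamily is grouped here with its values known. Frzb, an Sfrp-like Wnt-binding protein of cartilage, had 108 counts or 6.31 CPM in the dioscin library, against 86 counts or 4.98 CPM in the TAC library, a ratio of 1.27 (0.946 to 1.70), and Sfrp4 had 5 counts in the dioscin library and 14 in the TAC library, under 1 CPM in both. Frzb and Sfrp4 summed to 113 counts in the dioscin library and 100 in the TAC library, a ratio of 1.14 (0.863 to 1.51), an interval that ends below the start of that of the first subfamily.

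Wif1, a secreted protein that binds Wnts directly, had 59 counts in the dioscin library and 31 in the TAC library, a ratio of 1.91 (1.22 to 3.07) just short of the rule. Kremen1, the Dickkopf receptor, had 1233 counts or 72.0 CPM in the dioscin library, against 1318 counts or 76.3 CPM in the TAC library, a ratio of 0.944 (0.873 to 1.02). Kremen1 was the most abundant gene of the group per length in the TAC library, with 9.88 CPM per kb, and Dkk3 in the dioscin library, with 68.5. Of the summed antagonist level per length, Dkk3 made up 75.3% in the dioscin library and 3.05% in the TAC library, and Kremen1 10.3% in the dioscin library and 62.5% in the TAC library. Over the whole group that sum was 91.0 CPM per kb in the dioscin library and 15.8 in the TAC library. The promoter window of Sfrp5 held the GATA word at 2 places in the forward orientation (capitals) and is shown for them (chr19:42202253-42202502, minus strand).
Sfrp5: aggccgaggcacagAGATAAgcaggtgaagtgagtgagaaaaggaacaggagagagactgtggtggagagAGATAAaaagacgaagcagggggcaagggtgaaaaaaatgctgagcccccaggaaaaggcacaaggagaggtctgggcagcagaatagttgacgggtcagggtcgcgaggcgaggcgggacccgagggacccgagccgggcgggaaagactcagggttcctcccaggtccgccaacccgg

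**Figure D4:**
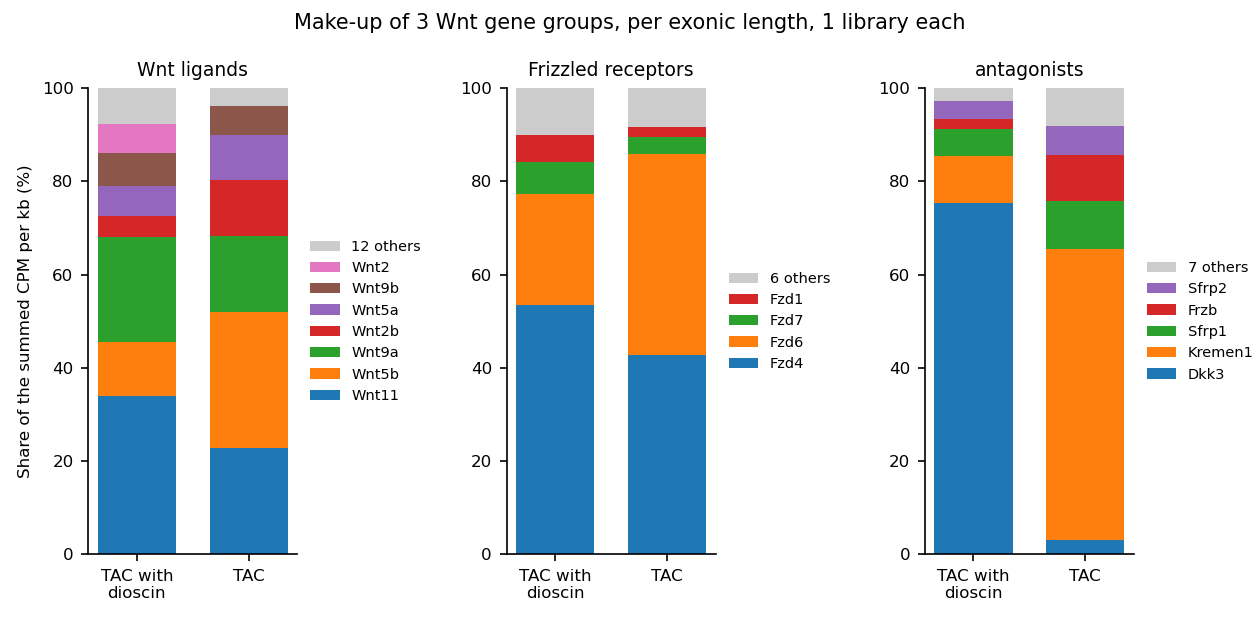
Share of each gene in the summed CPM per kb of the Wnt ligands, the Frizzled receptors and the antagonist group, with the dioscin library left and the TAC library right. Genes under 5% in both libraries are pooled as others. Dkk3 fills 75.3% of the antagonist bar in the dioscin library and 3.05% in the TAC library. Fzd6 fills 23.8% of the Frizzled bar in the dioscin library and 43.2% in the TAC library.

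The intracellular genes did not pass the rule. Ctnnb1, which encodes beta-catenin, had 3901 counts or 228 CPM in the dioscin library, against 4395 counts or 255 CPM in the TAC library, a ratio of 0.895 (0.857 to 0.935). The gene Ulk4 on the opposite strand covers 14.6% of its exonic length. Axin1, the scaffold of the complex that degrades beta-catenin, had 313 counts or 18.3 CPM in the dioscin library, against 292 counts or 16.9 CPM in the TAC library, a ratio of 1.08 (0.919 to 1.27). Axin2, the second scaffold and the most used feedback target of beta-catenin signalling (chromosome 11, 108920349 to 108950783), was at a lower level in the dioscin library. It had 58 counts or 3.39 CPM in the dioscin library, against 94 counts or 5.44 CPM in the TAC library, a ratio of 0.625 (0.441 to 0.873), and a predicted gene on the opposite strand covers 3.80% of its exonic length. With Ror1, Axin2 made up the 2 of 33 members that passed as lower when the threshold was set at 1.5-fold, beside 2815 of all 15697 genes. The window before its start is shown because Axin2 is the usual readout of the pathway. It held the glucocorticoid receptor word from 152 to 147 bases before the start and no TCF/LEF word, which says only that those letters are not in this window (chr11:108920099-108920348, plus strand).
Axin2: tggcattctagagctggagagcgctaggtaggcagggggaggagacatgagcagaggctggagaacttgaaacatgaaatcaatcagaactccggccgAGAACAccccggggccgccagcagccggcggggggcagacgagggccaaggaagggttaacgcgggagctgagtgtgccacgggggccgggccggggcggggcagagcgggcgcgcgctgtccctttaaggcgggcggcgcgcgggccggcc

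Of 93 other genes of the pathway, 83 reached 1 CPM, 11 were higher and 5 were lower in the dioscin library, with a median log2 ratio of 0.15. Beside these counts, and those of each layer, stand the 10.5% higher and 8.77% lower among all genes. With mitochondrial genes left out of the library totals, 7 were higher and 7 lower. Of the genes of secretion and the extracellular layer, 6 of 12 were higher and none was lower (median log2 ratio 1.02). Sost, the Lrp5 and Lrp6 antagonist sclerostin (chromosome 11, 101962458 to 101967015), had 164 counts or 9.58 CPM in the dioscin library, against 7 counts or 0.405 CPM in the TAC library, 22.1-fold higher (11.2 to 59.7). Gpc3, a heparan sulphate proteoglycan that binds Wnts, had 320 counts or 18.7 CPM in the dioscin library, against 31 counts or 1.80 CPM in the TAC library, 10.3-fold higher (7.19 to 15.6). Apcdd1, a membrane Wnt inhibitor and target gene, was 4.39-fold higher (3.06 to 6.60), with 9.0 CPM in the dioscin library and 2.03 CPM in the TAC library. Reck, a Wnt7 co-receptor and protease inhibitor, was 3.65-fold higher (2.86 to 4.74), with 17.4 CPM in the dioscin library and 4.75 CPM in the TAC library. Wls, the carrier that takes all Wnts to the cell surface, was 2.44-fold higher (2.14 to 2.78), with 46.6 CPM in the dioscin library and 19.1 CPM in the TAC library. Gpc4 was 2.17-fold higher (1.76 to 2.72). Porcn, the enzyme that adds the lipid to Wnts, did not pass, with a ratio of 1.41 (0.979 to 2.06).

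Inside the cell the differences ran both ways. Of 27 cytoplasmic genes, 3 were higher and 1 lower (median log2 ratio -0.07), and of 16 nuclear genes none was higher and 1 lower (0.06). Dvl2, a Dishevelled protein that relays the Frizzled signal, had 8006 counts or 468 CPM in the dioscin library, against 3878 counts or 225 CPM in the TAC library, 2.08-fold higher (2.0 to 2.16), and Acadvl, a fatty acid oxidation gene on the opposite strand, covers 18.3% of its exonic length. Its relatives Dvl1 and Dvl3 had ratios of 0.629 (0.589 to 0.670) and 0.923 (0.817 to 1.04). Dact1, a Dishevelled-binding regulator, was 2.01-fold higher (1.46 to 2.82), and Frat1, an inhibitor of GSK3, 2.40-fold higher (1.28 to 4.94). A gene on the opposite strand covers 34.9% of the exonic length of Dact1. Apc2, a relative of the degradation complex protein Apc, was 4.05-fold lower (3.07 to 5.49), whereas Apc had a ratio of 0.868 (0.797 to 0.946). The corepressor Tle2 was 2.54-fold lower (2.22 to 2.91). Among the TCF/LEF factors, Tcf7l2, the most abundant by CPM of those listed, had a ratio of 0.972 (0.857 to 1.10), and Lef1 had 1 count in the dioscin library and 4 in the TAC library. Of 18 planar polarity and noncanonical genes none was higher and 2 were lower (median log2 ratio -0.38), with Daam1, a formin that binds Dishevelled, 2.16-fold lower (1.97 to 2.37) and Celsr3 2.43-fold lower (1.36 to 4.74).

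Of the usual target genes, 14 reached 1 CPM, and 3 were higher and 1 was lower (median log2 ratio 0.32). Apcdd1 (also counted in the extracellular layer), Myc, a growth regulator, and Bambi, a receptor-like brake on TGF-beta signalling, were the higher ones, with Myc 2.20-fold higher (1.70 to 2.90) and Bambi 2.14-fold higher (1.66 to 2.79). Ccnd1, cyclin D1, was 2.69-fold lower (2.49 to 2.91), with 51.4 CPM in the dioscin library and 138 CPM in the TAC library and an opposite-strand overlap of 23.4% of its exonic length. Of the targets that did not pass, Nkd1 had 52 counts in the dioscin library and 60 in the TAC library, a ratio of 0.875 (0.591 to 1.29), and Notum, a Wnt deacylase, had 24 counts in the dioscin library and 33 in the TAC library, a ratio of 0.738 (0.415 to 1.28). Tcf7 had 36 counts in the dioscin library and 29 in the TAC library, a ratio of 1.25 (0.747 to 2.12). Lgr5 had no counts in either library, and Sp5 none in the dioscin library and 1 in the TAC library.

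**Figure D5:**
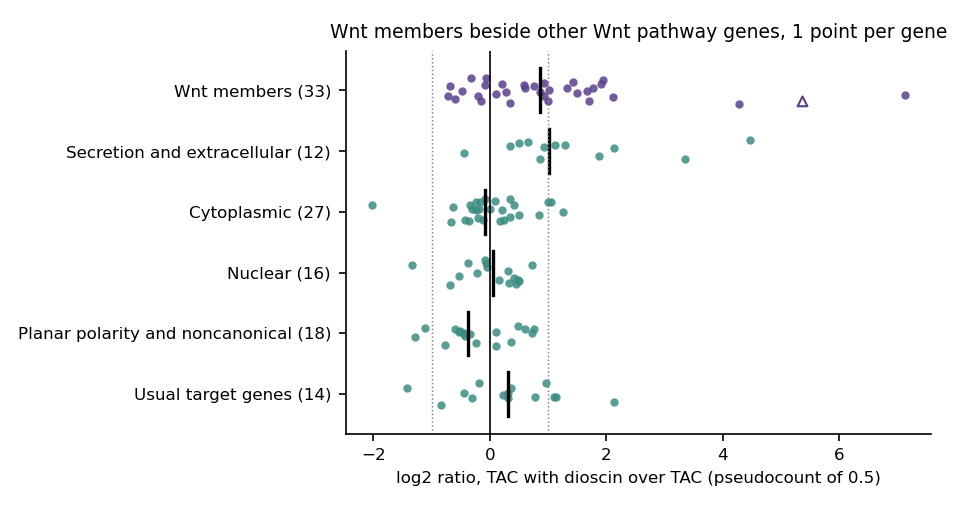
Log2 ratio, dioscin over TAC, for the 33 Wnt members and the other pathway genes at or above 1 CPM by layer, with 1 point per gene, the median as a black line and dotted lines at a 2-fold difference. The open triangle is Wnt2, which had no counts in the TAC library, so that its place depends on the pseudocount. The extracellular genes and the members centre near 1.02 and 0.85, and the cytoplasmic and nuclear genes near 0.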

How the data were processed

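Hearts were frozen and their RNA taken with Trizol, per the labels' protocols, and the libraries, made with an Illumina TruSeq RNA kit, are taken here as unstranded. The authors deposited raw read counts per gene. The submitters' processing notes name HISAT2 2.1.0, HTSeq and mm10, and the annotation, the strand setting and the HTSeq version are not given in the sources used here. Counts not assigned to a single gene, 71.5% of all counted in the dioscin library and 73.8% in the TAC library, stayed out of library sizes. Among them, counts without a unique alignment made up 36.5% of all counted in the dioscin library and 38.2% in the TAC library. Counts in no gene made up 30.0% of all counted in each library. These are shares of counts and may differ from shares of reads. Mitochondrially encoded genes took 25.5% of gene counts in the dioscin library and 31.6% in the TAC library. Names, positions and exonic lengths came from GENCODE M21 (GRCm38, the same build as mm10), which matched 55141 of 55401 identifiers.

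Counts were scaled with TMM in edgeR 4.0.16 under R 4.3.3. Log2 ratios used a pseudocount of 0.5, and exact 95% Clopper-Pearson intervals came from scipy 1.17.1. CPM per kb divides by the summed exonic length. PCR copies were not told apart, so intervals and floors cover counting error only, and with 1 library a group no p-value is given. Promoter sequences are credited to RefSeq, GRCm38.p6. The code was checked on simulated data.

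Every member is accounted for. Those past the size rule are described, with the 2 most abundant per length of each role and any that differed at least 1.5-fold with an interval excluding 1. Of the other pathway genes, up to 8 in each direction were named by the interval bound nearest to 1. Bambi, Dact1 and Frat1, which lie beyond that order, and the pathway genes and markers named without passing were chosen after their values were seen. The members and lists were chosen with earlier results of these data known. Of the listed markers, Gpr126 matched no symbol. Alternatives were total-count and DESeq2 1.42.0 scaling, other filters, folds and pseudocounts, and protein-coding genes alone.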

Additional observations from a re-analysis of the deposited data

How the results depend on the processing

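With 1 library per group no replicate could be left out. No paired analysis was possible because each group had 1 library and the labels carry no replicate number. The count of 13 higher members was 12 to 15 under other scalings, without a filter and over protein-coding genes, and 9 at a 3-fold size rule, 19 at 1.5-fold and 10 among genes at 1 to 10 CPM. It was 8 with a filter of 5 CPM, which tests fewer genes. The members tested numbered 33 in the main setting, 19 at 5 CPM and 46 without a filter. All 13 were among the 15 called without a filter and the 19 called at 1.5-fold. The 12, the 9 at 3-fold and the 8 at 5 CPM were all among the 13. Fzd3 lost its call under total counts, without mitochondrial genes and with a pseudocount of 2. The count of lower members was 1 with mitochondrial genes left out of the totals, Sfrp4, and 2 at 1.5-fold, Axin2 and Ror1. Leaving out mitochondrial genes moved the median log2 ratio of all genes by more than 0.1, to -0.21, and that of the members to 0.60. Under it Axin1 changed sign, and Ctnnb1, Fzd4, Fzd6, Kremen1, Lrp5 and Lrp6 left their counting intervals, none crossing the 2-fold line. The median of the members was 0.96 among genes at 1 to 10 CPM and 0.60 among genes at or above 1 CPM in both libraries, alternatives chosen after seeing the data. Other pathway genes numbered 11 higher and 5 lower with TMM, 7 higher and 7 lower without mitochondrial genes, 20 higher and 10 lower at 1.5-fold, and 4 higher and 1 lower at 3-fold. Over all genes, 1655 higher and 1377 lower became 1045 and 695 with 5 CPM, 3187 and 2815 at 1.5-fold, and 781 and 554 at 3-fold, and 2286 were lower without mitochondrial genes. Members under 10 CPM rest on at most 171 counts in a library, so that for Wnt2, Wnt4, Sfrp5 and Rspo1 depth limits the size of the difference.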
